A study of Mus musculus with 6 samples.

Results

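The genes described here are 34 parts of the machinery that copies DNA, taken from the 22180 genes that could be named on the arrays. They were chosen by name, with earlier results of these data known, so their counts of calls are descriptive. A gene with several probe sets is represented by the brightest over the 6 arrays. All 34 were measured. Gene expression was recorded in cultured macrophages of C57Bl/6 mice, on 6 arrays, 2 per group. Marrow cells of all 3 groups were first grown with M-CSF at 20 ng/ml for 5 days, the growth factor that turns monocyte precursors into macrophages. After replating, the first group received M-CSF at 50 ng/ml, the second FSL-1 at 20 ng/ml, and the third the same FSL-1 dose plus nutlin-3a at 10 µM, each lasting 6 days. FSL-1 is a lipopeptide that activates the receptors TLR2 and TLR6, and the series design speaks of multinucleated giant cells beside the macrophages. Nutlin-3a is a small molecule that frees p53 from its inhibitor Mdm2. The labels do not say whether M-CSF was kept in the FSL-1 cultures, nor whether replicates came from separate mice or cultures, so the p-values measure the spread between these arrays only. The RNA came from sorted cells, whose gate the labels leave out.

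DNA is copied once per cell cycle, in S phase. During G1 the origin recognition complex, with Cdc6 and Cdt1, loads rings of the MCM proteins onto DNA, which is called licensing. Kinases then attach Cdc45 and the GINS complex to these rings and so switch on the helicase that opens the double strand. Polymerases copy both strands behind it, held on DNA by the PCNA clamp, while ribonucleotide reductase, thymidylate synthase and thymidine kinase supply the nucleotides. Many of these genes are transcribed by E2F factors, and p53 acts on them indirectly, through the Cdk inhibitor p21. Bone marrow macrophages divide in response to M-CSF.

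All 10 macrophage markers, among them Cd68, Csf1r and Adgre1, lay above the median level of all genes (5.51, log2) on every array. All 8 markers of neutrophils and their dividing precursors, such as Elane and Mpo, lay below it on every array, with a mean level of 4.38 to 4.57 in M-CSF, 4.44 to 4.51 in FSL-1 and 4.56 to 4.57 with nutlin-3a. Of 7 lymphocyte, 8 stromal and endothelial, and 5 erythroid and megakaryocyte markers measured, 1 of each list lay above it on every array, namely Nkg7, Col1a1 and Pf4, while 6, 4 and 2 lay below it on every array. Single markers moved with the groups. With nutlin-3a against FSL-1, 2 of 10 macrophage markers fell, Fcgr1 by 1.58 (adjusted p = 0.00228, limma) and Cd14 by 1.12 (adjusted p = 0.00235) on the log2 scale, both also when any 1 array was omitted. The platelet gene Pf4 fell by 0.86 (adjusted p = 0.00613), lost on omitting either FSL-1 array, and the collagen gene Col1a2 by 0.80 (adjusted p = 0.0292), lost on omitting FSL-1 replicate 2 or either nutlin-3a array and with the mean of its probe sets. With FSL-1 against M-CSF, Csf1r, the receptor of M-CSF, fell by 0.87 (adjusted p = 0.00858), Epor fell, and Adgre1, Itgam and Pf4 rose. Each of these 5 calls was lost on omitting M-CSF replicate 1 or either FSL-1 array, and those of Adgre1 and Epor on omitting M-CSF replicate 2 too. Against M-CSF, Fcgr1, Cd14 and Epor were lower with nutlin-3a, and Spi1, Pdgfrb and Pecam1 higher. Of these 6, the call of Epor held in every alternative. The part of these markers in the results below was not tested. Mdm2, a direct p53 target and the protein that nutlin-3a binds, read 10.76 and 10.75 in FSL-1 and 11.52 and 11.53 with nutlin-3a. Its log2 change of 0.77 (adjusted p = 0.0113, limma) was no longer called after dropping any 1 of these 4 arrays. Cdkn1a, the gene of p21, changed by 0.61 (adjusted p = 0.0431), and this call was lost after dropping any 1 of the 6 arrays, with each array centred and in the fit of the 4 compared arrays alone.

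Few of the replication genes passed the test between M-CSF and FSL-1, and their values were lower once nutlin-3a was added. With FSL-1, 1 of the 34 fell and 0 rose (limma, adjusted p under 0.05), while 6.86% of all genes were called, 2.95% lower and 3.91% higher. The median log2 change of the 34 was -0.15, against -0.01 over all genes. When nutlin-3a was added to FSL-1, 16 of 34 fell and 0 rose, against 4.12% and 2.38% of all genes (6.50% in either direction). The median log2 change was -0.68, against 0.02 over all genes, and all 34 values lay below 0. The FSL-1 + nutlin-3a arrays also stood below the M-CSF arrays: 23 of 34 were lower and 0 higher, against 4.94% and 4.58% of all genes (9.51% in either direction), with a median of -0.81. The groups did not overlap in the lower direction for 32 members with nutlin-3a against FSL-1 and for 30 against M-CSF, and in the higher direction for 0 in both. Over all genes these shares were 23.7% lower and 27.2% higher, and 24.2% lower and 27.3% higher. The 3 comparisons share arrays in pairs, so their values are not independent of each other. In a bulk culture, fewer cells in S phase and less of each RNA per cell cannot be told apart.

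The calls are sensitive to single arrays. With nutlin-3a against FSL-1, leaving out FSL-1 replicate 1 kept 2 of the 16 calls (Gins1 and Rrm2), and leaving out FSL-1 replicate 2 kept 1 (Rrm2). It became 6 without FSL-1 + nutlin-3a replicate 1 (Cdc45, Clspn, Orc6, Prim1, Rrm1 and Rrm2) and 3 without FSL-1 + nutlin-3a replicate 2 (Cdc45, Rrm2 and Tyms). The median change moved less, between -0.77 and -0.55 over these fits. Against M-CSF, 23 calls turned into 15 when FSL-1 + nutlin-3a replicate 1 was omitted and 13 when its replicate 2 was. Omitting M-CSF replicate 1 gave 22, M-CSF replicate 2 gave 14 and either FSL-1 array 19. Rrm2 was called with nutlin-3a against FSL-1 in every alternative tried.

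The M-CSF arrays differed from each other in these genes. M-CSF replicate 2 was above replicate 1 in 31 of 34 members, by a median of 0.32, whereas 51.1% of all genes were higher in replicate 2. The median SD between M-CSF replicates was 0.223 for the members and 0.106 for all genes (log2, n = 2). In FSL-1 it was 0.0956 and 0.0917, and with nutlin-3a 0.143 and 0.104. Without M-CSF replicate 2 the median change with FSL-1 was -0.01, and without M-CSF replicate 1 it was -0.30. Without FSL-1 replicate 1 it was -0.06. Replicate 2 of FSL-1 was the higher array in 30 of 34 members, by a median of 0.13, against 53.8% of all genes. With nutlin-3a the order was the reverse, with replicate 2 higher in 9 of 34 members, by a median difference of -0.12, against 48.4% of all genes.

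**Figure D1:**
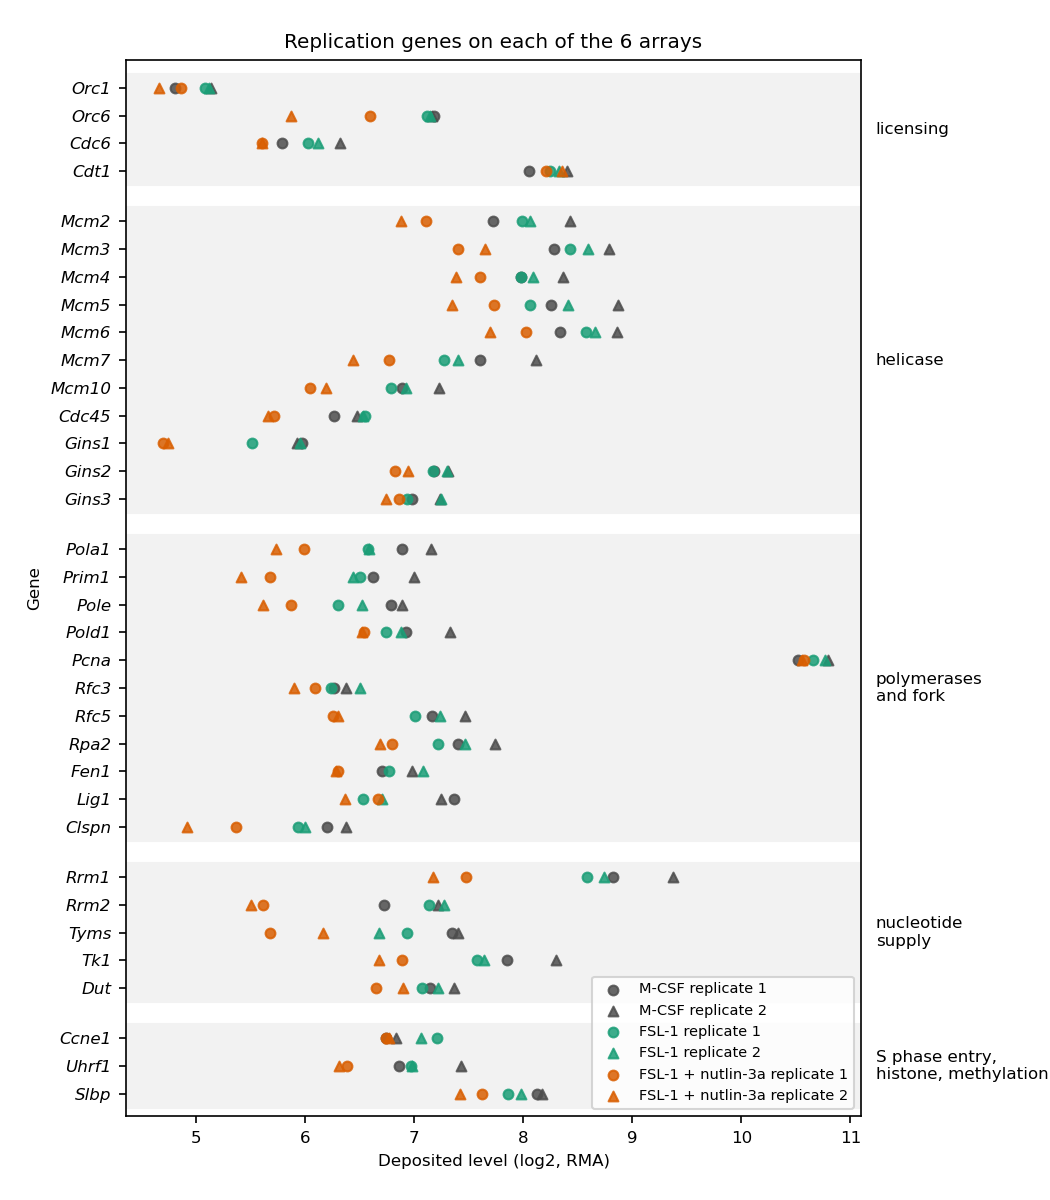
Deposited log2 level of each of the 34 genes (rows, grouped by step) on each of the 6 arrays. Circles are replicate 1 and triangles replicate 2, with M-CSF in grey, FSL-1 in green and FSL-1 + nutlin-3a in orange. Both orange points lie to the left of both green points in 32 of the 34 rows, and the grey triangle lies to the right of the grey circle in 31.

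The start regions of these genes were compared by their motif letters. RefSeq promoter windows (GRCm38.p6, 250 bases before to 50 after a start) were found for 30 of the 34, all but Mcm4, Gins1, Gins2 and Pole. Both strands were searched for the E2F site in the forms TTTCCCGC, TTTCGCGC, TTTGCCGC and TTTGGCGC, for the CHR element of late cell cycle genes in the form TTTGAA, and for the NF-Y box CCAAT. The E2F letters occurred for 14 of the 30 members (46.7%), and for 12 of 46 other replication genes (26.1%), a list described below. They occurred for 2.61% of the 27025 genes that have a window and 3.39% of the protein-coding genes on the arrays. The CHR letters occurred for 4 of 30 (13.3%), compared with 20.2% of all genes, and CCAAT for 20 of 30 (66.7%), compared with 41.1%. For 18 genes of mitosis the shares were the other way round, with the E2F letters for 1 (5.56%) and the CHR letters for 12 (66.7%). By step, the E2F letters were found for 3 of 4 licensing genes, 5 of 8 helicase genes, 5 of 10 polymerase and fork genes and 0 of 5 genes of nucleotide supply. Such a match is a description of the letters, and no binding was measured.

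Several members carry the E2F letters before the start, and 4 of these stretches are shown as examples. They were chosen after the matches were seen. Each stretch reads 5′ to 3′ on the gene's strand, with motif letters on either strand in capitals; in Mcm5 and Mcm6 the first capital run is made of overlapping E2F matches on opposite strands, and in Mcm6 the middle run is a CCAAT match. The stretches are Mcm5 (chr8:75109339-75109388, plus strand), Mcm6 (chr1:128359736-128359825, minus strand), Cdc6 (chr11:98908001-98908050, plus strand) and Pola1 (chrX:93632256-93632305, minus strand).
Mcm5: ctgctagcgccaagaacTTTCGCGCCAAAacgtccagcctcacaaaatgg
Mcm6: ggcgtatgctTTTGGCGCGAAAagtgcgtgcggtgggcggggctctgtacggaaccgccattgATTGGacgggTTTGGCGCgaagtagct
Cdc6: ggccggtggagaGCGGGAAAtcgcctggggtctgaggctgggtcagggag
Pola1: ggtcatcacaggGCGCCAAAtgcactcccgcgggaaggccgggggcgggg
The Mcm6 matches begin 110, 106 and 47 bases before the start, those of Mcm5 153 and 149 bases before it, and those of Cdc6 and Pola1 138 bases before it.

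The member with the largest called change in each step, with nutlin-3a against FSL-1, was Orc6 in licensing, Mcm2 in the helicase, Prim1 among polymerases and Rrm2 in nucleotide supply. None of these 4 holds the E2F letters in its window. The last 100 bases before the start are shown for Orc6 (chr8:85299532-85299631, plus strand), Mcm2 (chr6:88898781-88898880, minus strand), Prim1 (chr10:128015115-128015214, plus strand) and Rrm2 (chr12:24708154-24708253, plus strand). Capitals mark the CHR letters in Mcm2 and CCAAT, read on either strand, in the others.
Orc6: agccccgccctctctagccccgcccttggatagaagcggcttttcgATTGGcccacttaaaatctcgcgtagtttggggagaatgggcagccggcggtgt
Mcm2: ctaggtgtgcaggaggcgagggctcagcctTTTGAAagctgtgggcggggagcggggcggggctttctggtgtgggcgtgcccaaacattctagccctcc
Prim1: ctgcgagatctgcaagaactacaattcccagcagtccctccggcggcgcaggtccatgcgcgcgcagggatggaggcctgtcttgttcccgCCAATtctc
Rrm2: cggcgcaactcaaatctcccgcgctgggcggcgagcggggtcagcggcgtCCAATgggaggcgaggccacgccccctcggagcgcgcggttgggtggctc
Of the 14 members with a window that fell with nutlin-3a, 3 hold the E2F letters (Mcm3, Pola1 and Clspn). Of the 16 that were not called, 11 do. The CHR letters occur in 3 of the 14 (Mcm2, Cdc45 and Fen1) and in 1 of the 16 (Gins3). These shares depend on where the calls fall and were not tested against each other. With another spread estimate (eBayes trend and robust), Mcm5, Mcm6, Mcm7 and Uhrf1, which hold the E2F letters, were called too. So were Rpa2 and Slbp, whose windows lack them.

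**Figure D2:**
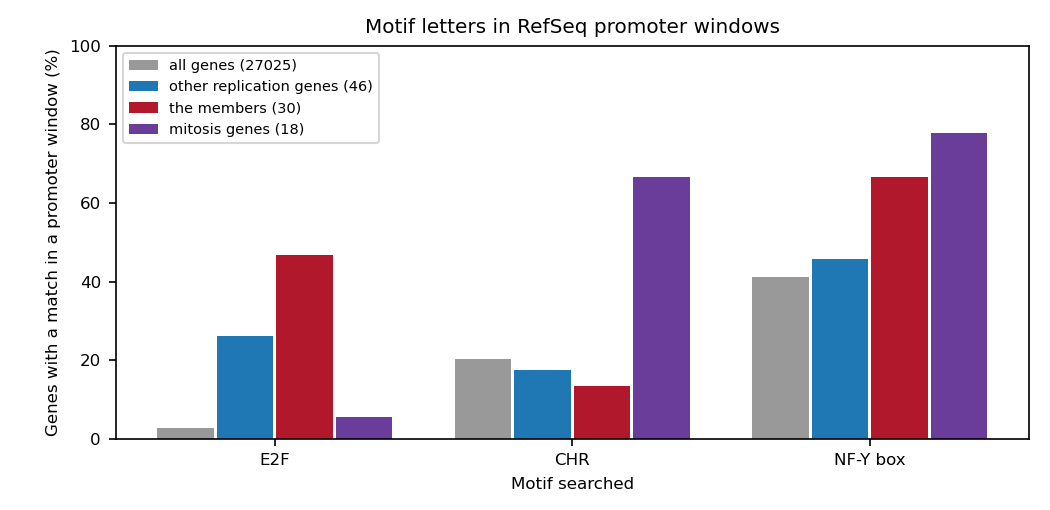
Percentage of genes whose RefSeq promoter window holds the letters of the E2F site, the CHR element or the NF-Y box, for all genes with a window, other replication genes, the members and mitosis genes. The number of genes with a window is in the legend, and the red bar of the members stands at 46.7% for E2F and 13.3% for CHR.

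Licensing genes gave 1 call with nutlin-3a. Orc6, a subunit of the origin recognition complex, read 7.18 and 7.17 in M-CSF, 7.12 and 7.14 in FSL-1, and 6.59 and 5.87 with nutlin-3a. Both nutlin-3a arrays lay below all others but were themselves far apart. Its log2 change against FSL-1 was -0.90 (SE 0.212, adjusted p = 0.0474), which is 1.87-fold lower. Leaving out FSL-1 + nutlin-3a replicate 1 kept this call, and leaving out any other of the 6 arrays ended it, as did the fit of the 4 compared arrays alone and quantile normalization once more.

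Cdt1, the loading factor that is destroyed once S phase begins, stayed level. Cdt1 read 8.06 and 8.41 in M-CSF, 8.24 and 8.33 in FSL-1, and 8.21 and 8.36 with nutlin-3a, with the groups overlapping throughout. The log2 change of Cdt1 with nutlin-3a was -0.0011 (95% interval -0.34 to 0.34, adjusted p = 0.998), an interval that leaves out a 2-fold change. Its sign turned to 0.03 when quantile normalization was applied once more. Cdc6, the ATPase that works with Cdt1, read 6.02 and 6.11 in FSL-1 and 5.60 on both nutlin-3a arrays, a change of -0.47 that did not pass (adjusted p = 0.168). Orc1, the largest subunit of the origin complex, was the dimmest member and had a change of -0.34 (adjusted p = 0.235).

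The MCM ring gave lower values for all its subunits with nutlin-3a. Mcm2 read 7.72 and 8.43 in M-CSF, 7.99 and 8.06 in FSL-1, and 7.11 and 6.88 with nutlin-3a. Mcm3 read 8.28 and 8.78 in M-CSF, 8.43 and 8.59 in FSL-1, and 7.40 and 7.65 with nutlin-3a. In both genes the FSL-1 arrays lay between the M-CSF arrays, and the nutlin-3a arrays lay below all of them. Mcm2 fell 2.04-fold (log2 change -1.03, SE 0.217, adjusted p = 0.0338) and Mcm3 1.99-fold (-0.99, SE 0.183, adjusted p = 0.0207). Neither call survived the loss of any 1 of the 4 compared arrays.

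The other ring subunits did not pass the test against FSL-1. Mcm6 had a log2 change of -0.76 (adjusted p = 0.0599), Mcm7 -0.73 (adjusted p = 0.0666), Mcm5 -0.70 (adjusted p = 0.127) and Mcm4 -0.54 (adjusted p = 0.0912). Their nutlin-3a arrays did not overlap the FSL-1 arrays. Among these 4, the 95% intervals of Mcm5, Mcm6 and Mcm7 reach past a 2-fold fall. Against M-CSF, 5 of the 6 ring genes were lower, from Mcm7 (-1.26, adjusted p = 0.00556) to Mcm4 (-0.68, adjusted p = 0.0337), and Mcm6 did not pass (-0.74, adjusted p = 0.0516). Of these 5 calls, that of Mcm7 held in every alternative. Those of Mcm2, Mcm3, Mcm4 and Mcm5 were lost when single arrays were left out. M-CSF replicate 2 decided Mcm3, Mcm4 and Mcm5, FSL-1 + nutlin-3a replicate 1 all 4, FSL-1 + nutlin-3a replicate 2 all but Mcm3, and each FSL-1 array Mcm4. Fitting the 4 compared arrays alone ended the Mcm4 call as well.

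Of the factors that turn the ring into an active helicase, some were called and some were not. Their changes were not tested against each other. Cdc45, which bridges the ring and GINS, read 6.26 and 6.48 in M-CSF, 6.55 and 6.53 in FSL-1, and 5.72 and 5.66 with nutlin-3a. Gins1, a GINS subunit, read 5.97 and 5.93, then 5.51 and 5.95, then 4.70 and 4.74. Mcm10, which helps the helicase to start, read 6.89 and 7.23, then 6.78 and 6.92, then 6.04 and 6.19. All 3 were lowest on both nutlin-3a arrays and fell against FSL-1, Gins1 by 1.01 (SE 0.154, adjusted p = 0.00982), Cdc45 by 0.86 (SE 0.122, adjusted p = 0.00719) and Mcm10 by 0.73 (SE 0.148, adjusted p = 0.0286) on the log2 scale. Leaving out either FSL-1 array ended the Cdc45 call, that of Gins1 was lost without FSL-1 replicate 2 or either nutlin-3a array, and that of Mcm10 without any 1 of the 4. The other GINS subunits among the members, Gins2 (-0.35, adjusted p = 0.143) and Gins3 (-0.28, adjusted p = 0.342), did not pass. Their 95% intervals (-0.63 to -0.07 and -0.63 to 0.07) leave out a 2-fold change. Gins4, a GINS subunit outside the members, had -0.10 and did not pass either (adjusted p = 0.686).

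**Figure D3:**
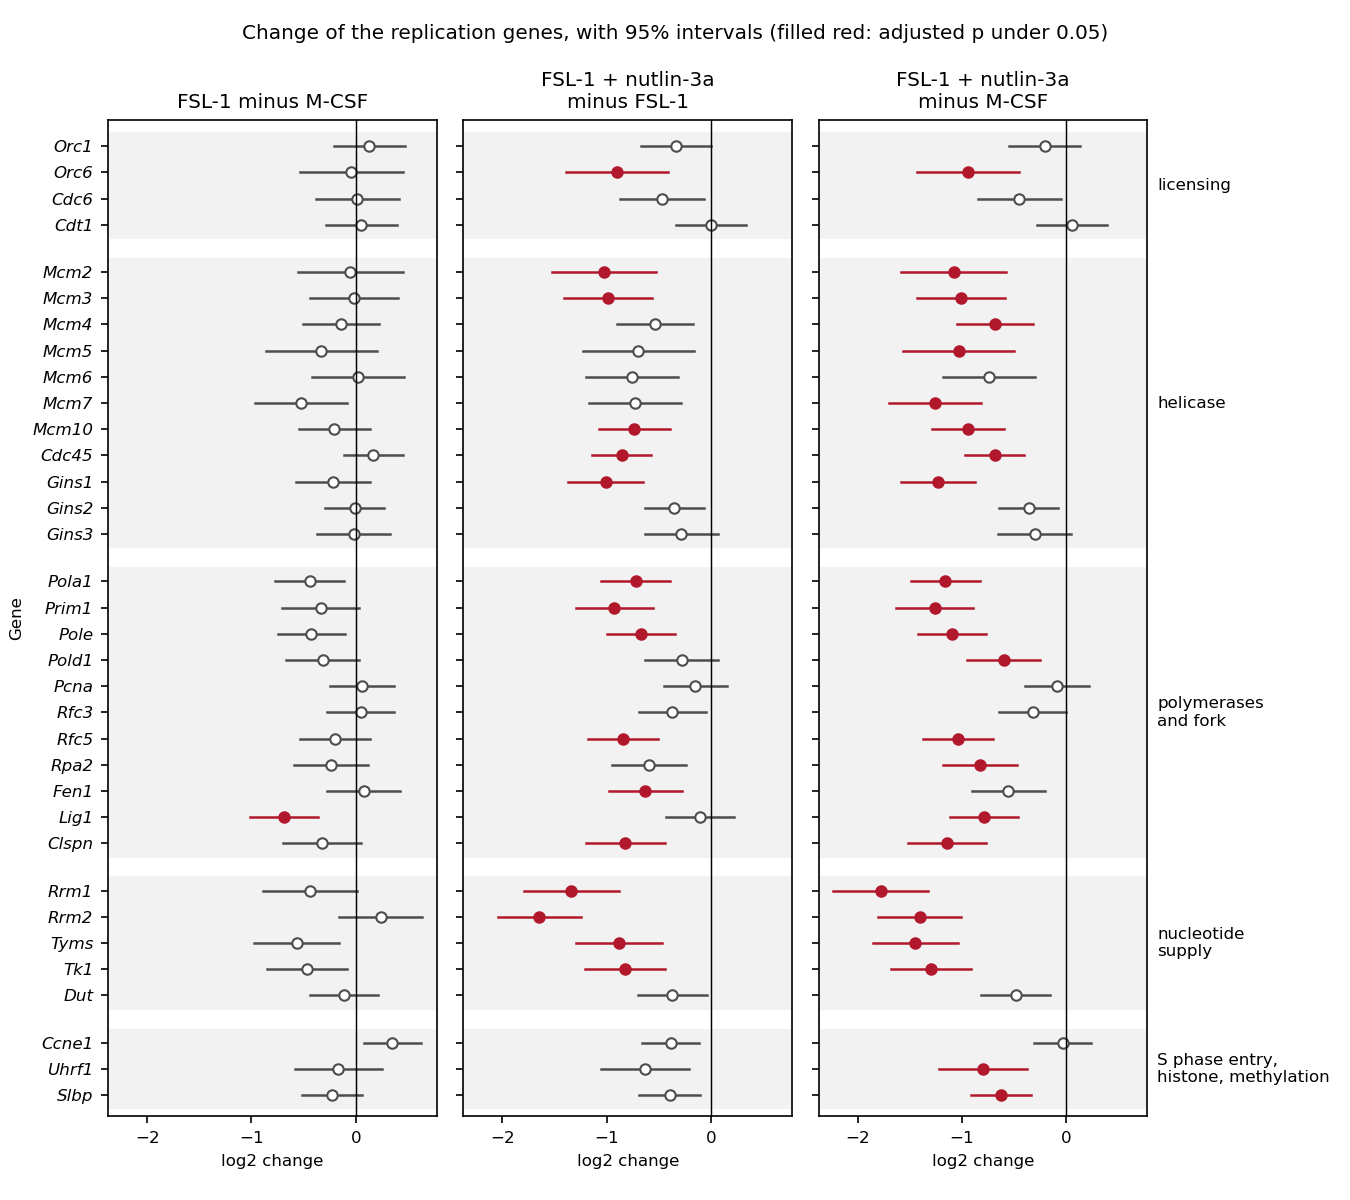
Log2 change of each member in the 3 comparisons, with its unadjusted 95% interval from the limma fit. Filled red points passed an adjusted p of 0.05, which 1, 16 and 23 of the 34 did, and all red points lie below 0.

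Of the 11 genes of polymerases and the fork, 6 fell with nutlin-3a, and the clamp was not among them. Prim1, the primase that lays down the first RNA bases, read 6.62 and 6.99 in M-CSF, 6.50 and 6.44 in FSL-1, and 5.67 and 5.41 with nutlin-3a. Pola1, its partner polymerase alpha, read 6.89 and 7.15, then 6.57 and 6.58, then 5.99 and 5.73. In both genes the 3 groups were fully apart, in the order M-CSF, FSL-1 and nutlin-3a. Against FSL-1, Prim1 fell 1.90-fold (log2 change -0.93, SE 0.159, adjusted p = 0.0154) and Pola1 1.65-fold (-0.72, SE 0.143, adjusted p = 0.0269). The call of Prim1 was kept without FSL-1 + nutlin-3a replicate 1 and lost without any other of the 4 arrays, and that of Pola1 was lost without any 1 of them. The steps from M-CSF to FSL-1 were -0.34 (adjusted p = 0.283) and -0.44 (adjusted p = 0.122) and did not pass.

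Pole, the polymerase of the leading strand, fell by 0.67 on the log2 scale (adjusted p = 0.0331), but its other, dimmer probe set had a change of 0.13. Its call was lost with the mean of both probe sets, in the fit of the 4 compared arrays alone and after dropping any 1 of the 6 arrays. Pold1, the polymerase of the lagging strand, had -0.28 (adjusted p = 0.345). Of the clamp loader subunits, Rfc5 had -0.84 (SE 0.145, adjusted p = 0.0154) and Rfc3 -0.37 (adjusted p = 0.171), and their difference was not tested. Outside the members, the subunits Rfc1 (-0.19, adjusted p = 0.466) and Rfc2 (0.07, adjusted p = 0.797) did not pass. Rfc5 lost its call without any 1 of the 4 arrays. Clspn, a fork protein that relays stalling to the checkpoint kinase Chk1, fell by 0.82 (SE 0.162, adjusted p = 0.0267), from 5.93 and 6.00 to 5.36 and 4.92. That call was kept without FSL-1 + nutlin-3a replicate 1 and lost without the other 3.

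Pcna, the sliding clamp and also a known p53 target, read 10.52 and 10.79 in M-CSF, 10.66 and 10.77 in FSL-1, and 10.57 and 10.56 with nutlin-3a. Its nutlin-3a arrays lay within the range of the M-CSF arrays and just under the FSL-1 arrays. The change of Pcna with nutlin-3a was -0.15 (95% interval -0.45 to 0.15, adjusted p = 0.584).

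Lagging strand finishing showed the one call of the FSL-1 comparison. Lig1, the ligase that seals Okazaki fragments, read 7.36 and 7.25 in M-CSF, 6.53 and 6.70 in FSL-1, and 6.66 and 6.37 with nutlin-3a. The FSL-1 and nutlin-3a arrays overlapped, and both groups lay below M-CSF. Lig1 fell 1.61-fold with FSL-1 (log2 change -0.69, SE 0.141, adjusted p = 0.0277), a call that leaving out any 1 of these 4 arrays ended. When nutlin-3a was added its change was -0.10 (95% interval -0.43 to 0.22, adjusted p = 0.75). Fen1, the nuclease that trims these fragments, had the reverse pattern, with 0.08 in FSL-1 (adjusted p = 0.85) and -0.63 with nutlin-3a (adjusted p = 0.0492). The Fen1 call was lost without any 1 of the 6 arrays, with quantile normalization once more, with the mean of its probe sets and in the fit of the 4 compared arrays alone. Rpa2, which coats single strands, had -0.59 with nutlin-3a (adjusted p = 0.0638) and was lower against M-CSF (-0.83, adjusted p = 0.0137). That call was lost without M-CSF replicate 2 or either nutlin-3a array.

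Nucleotide supply held the members with the largest changes in both comparisons with nutlin-3a. Rrm2, the small subunit of ribonucleotide reductase, whose level follows S phase, read 6.72 and 7.22 in M-CSF, 7.14 and 7.28 in FSL-1, and 5.61 and 5.51 with nutlin-3a. Rrm1, the large subunit, read 8.82 and 9.38, then 8.58 and 8.74, then 7.47 and 7.17. In both genes the nutlin-3a arrays stood clear of all 4 others. Rrm2 fell 3.13-fold against FSL-1 (log2 change -1.65, SE 0.171, adjusted p = 0.00196) and Rrm1 2.53-fold (-1.34, SE 0.196, adjusted p = 0.00816). Rrm2 has a second probe set, with a mean level of 2.33 and a change of -0.30, and the mean of both gave Rrm2 a log2 change of -0.97 (adjusted p = 0.013). The Rrm1 call was kept without FSL-1 + nutlin-3a replicate 1 and lost without the other 3 compared arrays, with adjusted p up to 0.073 over its alternatives.

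Both routes to thymidine nucleotides were lower as well. Tyms, thymidylate synthase, read 7.34 and 7.40 in M-CSF, 6.93 and 6.68 in FSL-1, and 5.68 and 6.17 with nutlin-3a. Tk1, the thymidine kinase of dividing cells, read 7.85 and 8.30, then 7.57 and 7.64, then 6.89 and 6.68. The groups again stood apart in the order M-CSF, FSL-1 and nutlin-3a. Tyms fell by 0.88 (SE 0.177, adjusted p = 0.0279) and Tk1 by 0.82 (SE 0.166, adjusted p = 0.0284) on the log2 scale when nutlin-3a was added. The call of Tyms was kept without FSL-1 + nutlin-3a replicate 2 and lost without the other 3 arrays, and that of Tk1 was lost without any 1 of the 4. Dut, which removes dUTP, had -0.37 and did not pass (adjusted p = 0.183).

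Genes at the edges of S phase gave 0 calls with nutlin-3a against FSL-1, and all 3 had an unadjusted p under 0.05, as did 4711 of 22180 genes. Ccne1, cyclin E, which with Cdk2 opens S phase, read 6.74 and 6.83 in M-CSF, 7.21 and 7.06 in FSL-1, and 6.74 and 6.77 with nutlin-3a. Its FSL-1 arrays were the highest, and the nutlin-3a arrays were back at the M-CSF level. Neither step passed, with 0.35 for FSL-1 (adjusted p = 0.131) and -0.39 for nutlin-3a (adjusted p = 0.102). Among genes above the median of all genes alone, both were called. Uhrf1, which carries DNA methylation onto the new strand, had -0.63 (adjusted p = 0.0869), and Slbp, which binds the end of histone mRNA, -0.40 (adjusted p = 0.112). Against M-CSF, Uhrf1 (-0.80, adjusted p = 0.0307) and Slbp (-0.63, adjusted p = 0.0185) were lower. The Uhrf1 call was lost in the fit of the 4 compared arrays alone and without 5 of the 6 arrays, all but M-CSF replicate 1, and that of Slbp without either M-CSF array or FSL-1 + nutlin-3a replicate 2.

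With FSL-1 against M-CSF, the 33 members that did not pass had 95% intervals that leave out a 2-fold change in either direction. At an unadjusted p under 0.05, 7 of the 34 were different, against 4712 of 22180 genes, and the groups did not overlap in the lower direction for 12 members and in the higher for 2, against 25.6% and 24.6% of all genes. The values nearest to Lig1 were Tyms (-0.57, adjusted p = 0.108), Mcm7 (-0.52, adjusted p = 0.163) and Tk1 (-0.47, adjusted p = 0.15). By step, the median log2 change was 0.04 in licensing, -0.05 in the helicase and -0.32 among polymerases and fork proteins. It was -0.44 in nucleotide supply and -0.17 among the S phase entry genes. The steps were not tested against each other.

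FSL-1 + nutlin-3a against M-CSF gave 14 members lower by 2-fold or more, all of them called. Pole is among them (2.13-fold), but its dimmer probe set had a log2 change of 0.25. With the mean of both probe sets Pole was 1.34-fold lower and was not called (adjusted p = 0.0727). Rrm1 was 3.43-fold lower (log2 change -1.78, SE 0.196, adjusted p = 0.00121), Tyms 2.73-fold, Rrm2 2.65-fold (1.81-fold with the mean of its probe sets), Tk1 2.45-fold and Prim1 2.40-fold. Calls held in every alternative for 11 members: Mcm7, Mcm10, Gins1, Pola1, Prim1, Rfc5, Clspn, Rrm1, Rrm2, Tyms and Tk1. By step, the calls numbered 1 of 4 in licensing, 8 of 11 in the helicase, 8 of 11 among polymerases and fork proteins, 4 of 5 in nucleotide supply and 2 of 3 among the S phase entry genes. With nutlin-3a against FSL-1 the same steps had 1, 5, 6, 4 and 0 calls.

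Other genes of the pathway were taken as a list beside the members, without a test between the lists. Of 59 further replication genes, 55 were measured. With nutlin-3a against FSL-1, 8 of the 55 fell and 2 rose, against 4.12% and 2.38% of all genes. The median log2 change of the 55 was -0.28. The 8 genes of chromatin replication among them had 4 that fell and a median of -0.72. The 11 genes of helicase and firing had 3 and -0.48, and the 21 of polymerases and fork 1 and -0.19. The 7 genes of licensing had 0 that fell and a median of -0.16, and the 8 of nucleotide supply 0 and -0.02. Dbf4, the activator of the kinase Cdc7 that fires origins, read 7.31 and 7.26 in FSL-1 and 6.11 and 6.01 with nutlin-3a. The histone chaperones Asf1b (-1.28, adjusted p = 0.00653) and Nasp (-0.91, adjusted p = 0.00628) fell too, both with a call lost without FSL-1 replicate 2. Dbf4 fell by 1.22 (SE 0.112, adjusted p = 0.00119), and its call held in every alternative.

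Top1, the topoisomerase that relaxes DNA ahead of the fork and during transcription, went the other way. Top1 read 9.24 and 9.23 in M-CSF, 9.30 and 9.31 in FSL-1, and 10.40 and 10.32 with nutlin-3a. It rose by 1.05 (adjusted p = 0.00199), and the call held in every alternative. Tk2, the mitochondrial thymidine kinase, was the other gene that rose (0.67, adjusted p = 0.0339), after a fall of 0.62 with FSL-1 (adjusted p = 0.0412). Both Tk2 calls were lost in the fit of the 4 compared arrays alone. Without the arrays in turn, the rise was lost without 5 of the 6, all but FSL-1 replicate 2, and the fall without any 1.

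Leaving out FSL-1 replicate 1 turned the counts of 8 and 2 into 3 and 1, FSL-1 replicate 2 into 1 and 2, and either nutlin-3a array into 4 and 1. With FSL-1 against M-CSF, 2 of the 55 fell, Tk2 and the firing factor Ticrr (-0.60, adjusted p = 0.045), and 1 rose, the origin subunit Orc2 (0.61, adjusted p = 0.0209). Both counts are near the shares over all genes, 2.95% lower and 3.91% higher. The Ticrr call was kept without M-CSF replicate 1 and lost without any other array and in the fit of the 4 compared arrays alone. Leaving out any 1 of the 4 compared arrays ended that of Orc2. FSL-1 + nutlin-3a against M-CSF gave 17 lower and 1 higher of 55, against 4.94% and 4.58% of all genes. Among the 17 were Ticrr at -1.38 (adjusted p = 0.000811), Nasp at -1.21 and Dbf4 at -1.16. Of these 17, the count was 6 when M-CSF replicate 2 or FSL-1 + nutlin-3a replicate 2 was left out, 10 with the first nutlin-3a array left out and 11 with the first M-CSF array left out.

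Beside a list of 19 measured mitosis genes, the replication genes had smaller changes in both steps. With FSL-1, 15 of the 19 mitosis genes fell, with a median log2 change of -0.85, where the 34 members had 1 call and -0.15. With nutlin-3a against FSL-1, 19 of 19 fell, with a median of -1.55 against -0.68. Leaving out FSL-1 replicate 1 or 2 gave 4 and 6 in place of 15, and leaving out M-CSF replicate 1 or 2 gave 7 and 9. This difference between lists was described and not tested. M-CSF replicate 2 was above replicate 1 in 16 of the 19 mitosis genes too, by a median of 0.13.

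**Figure D4:**
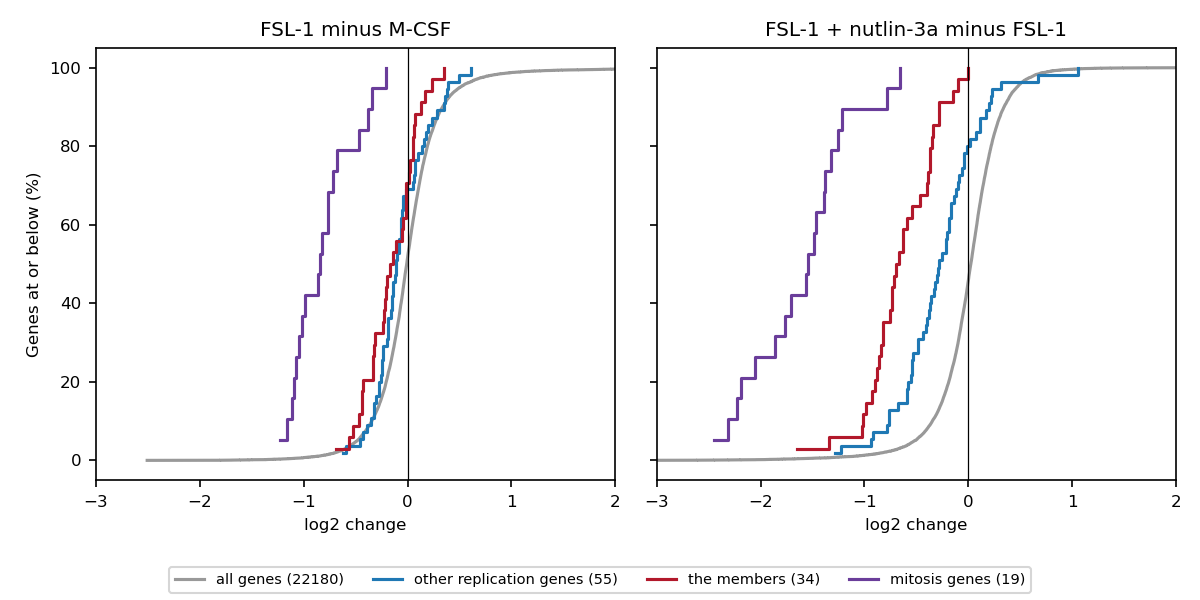
Cumulative share of genes (vertical axis, percent) at or below each log2 change (horizontal axis, drawn from -3 to 2, which leaves out a few genes of the whole set), for FSL-1 minus M-CSF and for FSL-1 + nutlin-3a minus FSL-1. The red line of the 34 members crosses 50% near -0.15 on the left and near -0.68 on the right, to the right of the purple mitosis line in both panels.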

How the data were processed

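Each deposited value is a log2 level of a probe set. Per the submitters' processing notes, the authors used RMA and Affymetrix Expression Console 1.4. RMA corrects background and equalises arrays by quantiles, so a change shared by most genes would be hidden. Probe sets naming 1 gene gave 22180 genes, and 4 members have a second, dimmer probe set. No source used here names the annotation's genome build.

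The test was limma's (version 3.58.1, R 4.3.3; lmFit, then eBayes) over all 6 arrays (3 residual degrees of freedom), with Benjamini-Hochberg adjustment over all genes and a call at 0.05. On data simulated for the nutlin-3a and FSL-1 comparison (22180 genes, 200 changed per run), the test called 37.4% of genes changed 1.5-fold and 97.5% of those changed 2-fold. The simulated noise was independent between genes, while the members moved together between replicate arrays. These shares may therefore not hold for the members. The members and lists were chosen with earlier results of these data known. The text names all 34 members, up to 4 called genes per comparison from the other replication genes, Mdm2 and Cdkn1a; promoters follow the largest called change per step, others being chosen later. Promoter sequences are RefSeq's. Alternatives were another spread estimate, scalings, probe set means, filters, compared groups alone, a replicate block and leaving out arrays. The number of arrays limits precision. Figures were drawn with matplotlib 3.10.9.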

Additional observations from a re-analysis of the deposited data

How the results depend on the processing

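With eBayes trend and robust, 2744 genes were called with FSL-1, 2658 with nutlin-3a against FSL-1 and 3337 against M-CSF, and 2 members fell with FSL-1. Among genes above the median of all genes these counts were 2703, 2626 and 3334, and 4 members fell and 1 rose with FSL-1. This filter changes both the number of genes tested and the spread estimate, and their parts were not tested. In the alternatives that dropped no single array, the members called lower stayed within 1.5 times of 16 and 23. In any alternative, 0 called members changed sign. With 1 array left out, all genes called ran from 451 to 1299 of 1521 with FSL-1, from 352 to 1212 of 1441 with nutlin-3a against FSL-1 and from 1158 to 1529 of 2110 against M-CSF. Members that fell ran from 0 to 1, 1 to 16 and 13 to 22, and members that rose were 0 throughout. A group with 1 array left is assumed to vary like the others.

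Replicate numbers do not pair the samples in the labels, and deviations of same-numbered arrays correlated at -0.19, 0.017 and -0.025. With the number as a block, 1167, 1005 and 1725 genes were called, and 1, 14 and 21 members fell. The calls lost were Fen1 and Pole with nutlin-3a against FSL-1, and Mcm4 and Pold1 against M-CSF. Crossing the numbers of M-CSF in this block, an alternative added after seeing the data, gave 1278, 1148 and 1971 genes and 1, 13 and 23 members.

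Signs turned for values near 0 that passed no test. With FSL-1, Cdc6 was -0.012 after quantile normalization once more and -0.015 with arrays centred, Mcm6 -0.013 with arrays centred and Dut 0.086 with the mean of its probe sets. Cdt1 was 0.028 with nutlin-3a against FSL-1 after quantile normalization once more. With 1 array left out, the FSL-1 change ran from -0.035 to 0.30 for Orc1, -0.25 to 0.28 for Cdc6, -0.12 to 0.23 for Cdt1, -0.41 to 0.30 for Mcm2, -0.27 to 0.23 for Mcm3, -0.33 to 0.051 for Mcm4, -0.24 to 0.28 for Mcm6, -0.075 to 0.054 for Gins2, -0.17 to 0.14 for Gins3, -0.076 to 0.20 for Pcna, -0.083 to 0.18 for Rfc3, -0.079 to 0.23 for Fen1, -0.0083 to 0.49 for Rrm2 and -0.45 to 0.12 for Uhrf1. The nutlin-3a change against FSL-1 ran from -0.075 to 0.073 for Cdt1 and -0.25 to 0.046 for Lig1. Against M-CSF it ran from -0.12 to 0.23 for Cdt1, -0.23 to 0.047 for Pcna and -0.080 to 0.012 for Ccne1. The cause was not tested.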
